A study of Homo sapiens with 12 samples.

Results

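Immediate early response genes are transcribed within minutes of a stimulus without the need for new protein, and 10 of them were followed across HepG2 tumour spheroids with and without a knockdown of a HIF subunit. The 10 genes, IER3, IER2, ZFP36, EGR1, FOS, JUN, ATF3, DUSP1, KLF6 and MYC, were listed by name, and each was represented by the brightest probe set that carries its symbol alone, which gave 10 of 18404 measured genes. HepG2 is a human hepatocellular carcinoma line. The spheroids were 10 days old and grown in stirred flasks. The arrays fall into 3 groups of 4, namely HIF-2α knockdown, HIF-1α knockdown and wild type HepG2. HIF-1α and HIF-2α are the DNA-binding partners, stabilised when oxygen is low, of the hypoxia-inducible factors, and are encoded by HIF1A and EPAS1. The short sample descriptions name the knockdowns as sh1alpha and sh2alpha. The sources used here give neither the way they were introduced, nor any construct in the wild type cells, nor whether a line was 1 clone. All groups share the cell line, the spheroid culture and the RNA amplification. The labels name no added stimulus. Each group comes from 4 separate spheroid experiments, and p-values measure the spread between them.

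Immediate early genes sit at the end of growth factor, stress and cytokine signalling. Kinases of the ERK, JNK and p38 families act on transcription factors already bound at their promoters, such as serum response factor at CArG boxes and CREB at cAMP response elements. Many of the products are themselves transcription factors (EGR1, FOS, JUN, ATF3, KLF6, MYC), and others switch the response off again, as DUSP1 does by removing phosphate from the kinases and ZFP36 by marking AU-rich mRNAs for decay. In liver the group is known for its rise after partial hepatectomy and during the isolation of hepatocytes.

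The values are the authors' deposited log2 values, so a difference of 1 is a factor of 2, and a level near the array median cannot be told from a lack of signal. The medians over all probe sets of an array lay between 7.29 and 7.41. The targeted transcripts followed the labels. EPAS1 was at 9.67, 10.02, 9.87 and 9.98 in HIF-2α knockdown, against 10.83 to 11.26 in wild type, and HIF1A was at 9.25, 9.58, 9.38 and 9.64 in HIF-1α knockdown, against 10.62 to 10.79 in wild type. All 8 hepatocyte markers measured lay above the 81st percentile of genes, from FGB at 81.8 to APOB at 99.97, while 6 of 9 leukocyte, 5 of 7 endothelial and 8 of 9 stromal markers lay below the median gene. Those above it were LYZ (99.8), CD68 (89.7) and TYROBP (57.0) of the leukocyte list, PECAM1 (57.7) and CLDN5 (51.0) of the endothelial list and ACTA2 (80.4) of the stromal list. The leukocyte marker PTPRC lay at the 3.21 percentile. The lowest values of 3 arrays were raised: the 0.1 percentile was 6.35 in replicate 4 of HIF-2α knockdown and 6.33 to 6.34 in replicates 1 and 2 of wild type, against 6.11 to 6.23 on the other arrays. In these bulk samples fewer cells with a transcript and less transcript per cell cannot be told apart.

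IER3 was the member with the largest difference. It was lower in HIF-2α knockdown than in either other group, and ZFP36 and EGR1 were lower in HIF-2α knockdown than in HIF-1α knockdown. By limma, 1 of 10 members passed an adjusted p of 0.05 in HIF-2α knockdown against wild type (IER3, lower), where 0.788% of all genes passed and 0.310% passed as lower. In HIF-2α against HIF-1α knockdown 3 of 10 passed, all lower, against 2.77% of all genes and 1.80% as lower. In HIF-1α knockdown against wild type none of the 10 passed, against 0.962% of all genes, and 3 had an unadjusted p below 0.05 (EGR1, JUN and MYC), against 13.2% of all genes. That share of all genes was 12.01% in HIF-2α knockdown against wild type and 13.6% between the knockdowns, and it is the background for the unadjusted counts of the gene lists too. The 3 comparisons share arrays, so their results are not independent of each other.

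**Figure D1:**
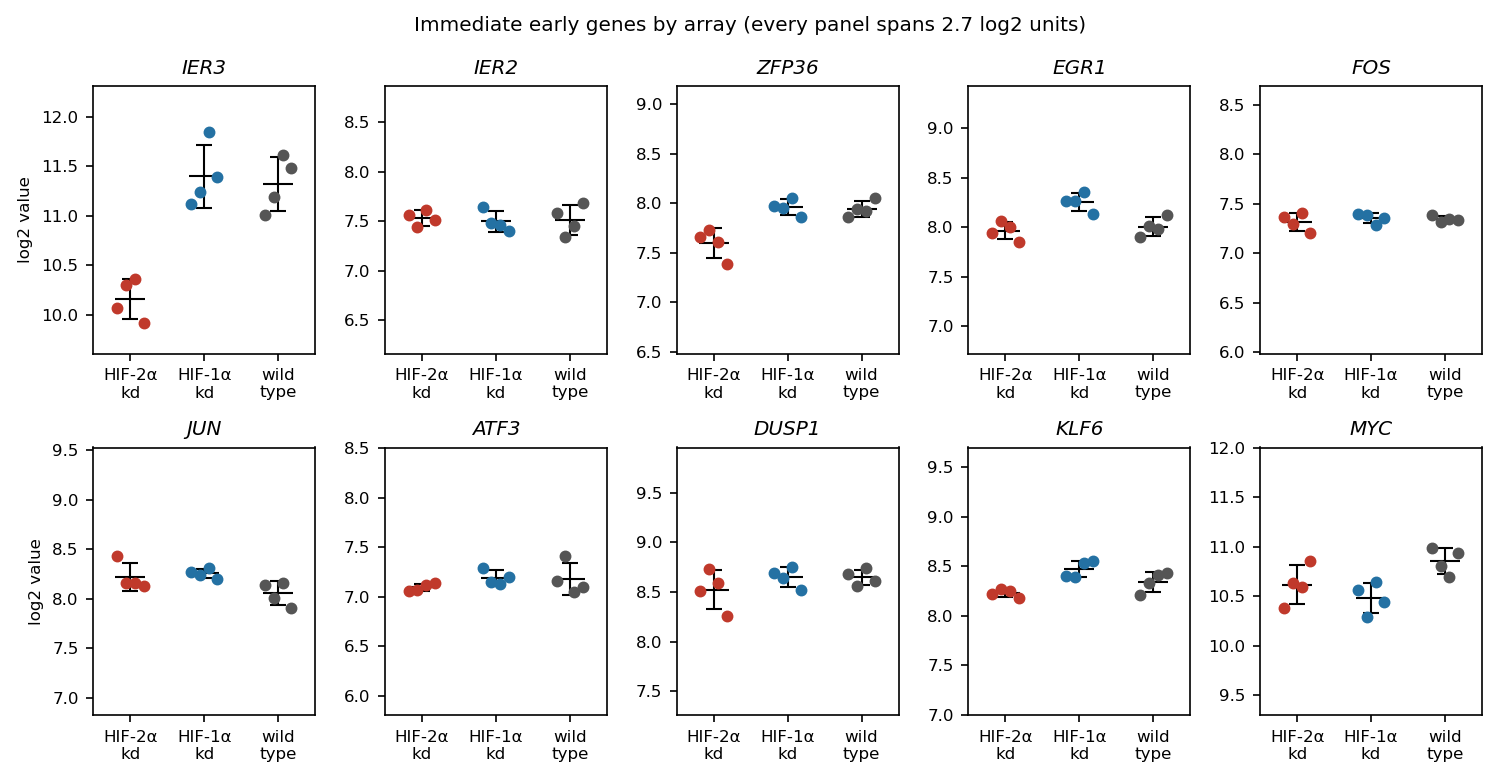
Deposited log2 values of the 10 immediate early genes on each array (points), with the group mean and SD (black, n = 4), in HIF-2α knockdown, HIF-1α knockdown and wild type spheroids. Each panel is centred on its gene and all panels span the same number of log2 units. IER3 stands at 9.92 to 10.36 in HIF-2α knockdown, below every array of the other groups, while FOS lies between 7.20 and 7.41 throughout.

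IER3 encodes a short-lived protein, also called IEX-1, that acts on cell survival and on ERK and NF-κB signalling. IER3 was at 10.06, 10.30, 10.36 and 9.92 in HIF-2α knockdown replicates 1 to 4. It was at 11.12, 11.24, 11.85 and 11.39 in HIF-1α knockdown and at 11.01, 11.18, 11.61 and 11.48 in wild type. The highest HIF-2α knockdown array thus lay below the lowest array of either other group, whereas HIF-1α knockdown and wild type overlapped over most of their range. The means were 10.16 ± 0.21 in HIF-2α knockdown, 11.40 ± 0.32 in HIF-1α knockdown and 11.32 ± 0.27 in wild type (SD, n = 4 each). Signal in HIF-2α knockdown was 44.8% of that in wild type (log2 difference -1.16, SE 0.16, 95% interval -1.51 to -0.81, limma adjusted p = 0.00433). It was 42.4% of that in HIF-1α knockdown (log2 difference -1.24, SE 0.16, adjusted p = 0.00101). By unadjusted p, IER3 ranked 25 of 18404 genes against wild type. HIF-1α knockdown differed from wild type by 0.08 (95% interval -0.27 to 0.43, adjusted p = 0.891), an interval that leaves room for a change of either sign. Without the 3 arrays with a raised floor, IER3 was lower in HIF-2α knockdown by 1.30 against wild type (log2 difference -1.30, adjusted p = 0.0477) and by 1.16 against HIF-1α knockdown (log2 difference -1.16, adjusted p = 0.0145).

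The spread of IER3 within groups was also the widest of the members, with a pooled SD of 0.27, at the 98th percentile of all genes, where the median gene had 0.10. Replicate 3 was the highest array in all 3 groups, at 10.36 in HIF-2α knockdown, 11.85 in HIF-1α knockdown and 11.61 in wild type. Without HIF-1α knockdown replicate 3 the difference between the knockdowns was -1.09 (adjusted p = 0.00277).

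ZFP36 encodes tristetraprolin, the zinc finger protein that binds AU-rich elements and recruits the mRNA decay machinery. ZFP36 was at 7.66, 7.73, 7.61 and 7.38 in HIF-2α knockdown. It was at 7.98, 7.95, 8.06 and 7.86 in HIF-1α knockdown and at 7.86, 7.94, 7.92 and 8.05 in wild type. All 4 HIF-2α knockdown arrays lay below all 8 others, and replicate 4 was the lowest. ZFP36 fell to 77.7% of the HIF-1α knockdown signal (log2 difference -0.36, SE 0.07, 95% interval -0.53 to -0.20, limma adjusted p = 0.0192). Against wild type the difference was of like size but did not pass (log2 difference -0.35, SE 0.07, adjusted p = 0.0523). HIF-1α knockdown and wild type differed by 0.02 (95% interval -0.14 to 0.18). The call between the knockdowns was lost without HIF-1α knockdown replicate 1, 2 or 3 (adjusted p 0.0504, 0.0550 and 0.0813) and without the arrays with a raised floor (log2 difference -0.29, adjusted p = 0.0555). The call against wild type was gained without HIF-2α knockdown replicate 2 (adjusted p = 0.0401) and after quantile normalization (adjusted p = 0.0164).

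EGR1 and KLF6 encode zinc finger transcription factors that bind GC-rich promoter elements. EGR1 was at 7.95, 8.06, 7.999 and 7.86 in HIF-2α knockdown, at 8.26, 8.27, 8.36 and 8.14 in HIF-1α knockdown and at 7.90, 8.01, 7.99 and 8.13 in wild type. Here it was HIF-1α knockdown that stood above both other groups, with its lowest array at 8.14 and the highest wild type array at 8.13. EGR1 was at 81.7% in HIF-2α knockdown relative to HIF-1α knockdown (log2 difference -0.29, SE 0.07, 95% interval -0.43 to -0.15, limma adjusted p = 0.0306). HIF-1α knockdown exceeded wild type by 0.25 (SE 0.07, adjusted p = 0.0941) while HIF-2α knockdown lay -0.04 from wild type (95% interval -0.18 to 0.10), and neither passed. The call between the knockdowns was lost without any 1 of HIF-1α knockdown replicates 1, 2 and 3 or HIF-2α knockdown replicates 1, 3 and 4 (adjusted p 0.0576 to 0.122), after centring each array (0.0742) and without the arrays with a raised floor (0.110).

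KLF6 was at 8.22, 8.27, 8.25 and 8.18 in HIF-2α knockdown, the tightest group of this gene (SD 0.04). It was at 8.40, 8.40, 8.53 and 8.56 in HIF-1α knockdown and at 8.21, 8.33, 8.41 and 8.43 in wild type. The knockdowns did not overlap, and wild type overlapped both. The difference between the knockdowns did not pass on the deposited values (log2 difference -0.24, SE 0.06, adjusted p = 0.0533) and passed after quantile normalization (-0.22, adjusted p = 0.00912). Against wild type the difference of KLF6 was -0.11 in HIF-2α knockdown (adjusted p = 0.503) and 0.13 in HIF-1α knockdown (adjusted p = 0.394).

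**Figure D2:**
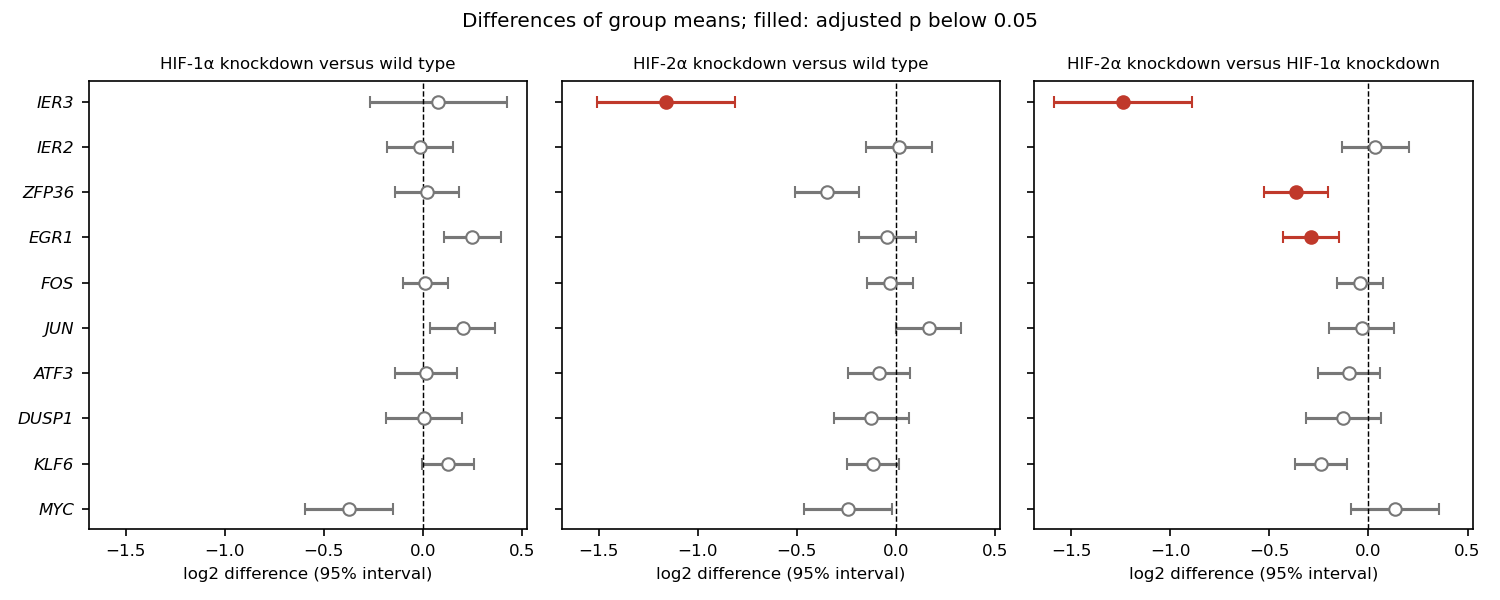
Differences of group means on the log2 scale (points) with 95% intervals from limma, for each member in the 3 comparisons; filled points have an adjusted p below 0.05. IER3 is the 1 filled point against wild type, at -1.16 in HIF-2α knockdown, and IER3, ZFP36 and EGR1 are filled between the knockdowns.

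The promoter windows of EGR1, ZFP36 and KLF6, which separated the knockdowns, and of FOS, which did not, are shown as RefSeq gives them. IER3, which also separated the knockdowns, had no window to search. The windows are from GRCh38.p14 and run from 250 bases before to 50 bases after the annotated start. They are written 5′ to 3′ on the gene's strand. Capitals mark the core letters of a hypoxia response element, ACGTG or GCGTG on either strand, and CArG boxes. The windows are EGR1 (chr5:138465229-138465528, plus strand), ZFP36 (chr19:39406597-39406896, plus strand), KLF6 (chr10:3785160-3785459, minus strand) and FOS (chr14:75278578-75278877, plus strand).
EGR1: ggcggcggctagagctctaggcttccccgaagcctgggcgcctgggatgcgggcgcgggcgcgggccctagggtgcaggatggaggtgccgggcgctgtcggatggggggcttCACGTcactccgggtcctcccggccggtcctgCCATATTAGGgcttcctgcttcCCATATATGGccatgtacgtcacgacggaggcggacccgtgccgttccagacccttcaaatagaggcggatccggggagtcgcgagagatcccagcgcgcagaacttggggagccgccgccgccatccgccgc
ZFP36: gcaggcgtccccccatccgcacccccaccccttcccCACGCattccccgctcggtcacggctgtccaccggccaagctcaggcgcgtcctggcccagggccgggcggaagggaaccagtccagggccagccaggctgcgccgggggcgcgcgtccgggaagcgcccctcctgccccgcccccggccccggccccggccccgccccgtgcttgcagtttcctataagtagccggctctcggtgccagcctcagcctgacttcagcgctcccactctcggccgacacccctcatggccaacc
KLF6: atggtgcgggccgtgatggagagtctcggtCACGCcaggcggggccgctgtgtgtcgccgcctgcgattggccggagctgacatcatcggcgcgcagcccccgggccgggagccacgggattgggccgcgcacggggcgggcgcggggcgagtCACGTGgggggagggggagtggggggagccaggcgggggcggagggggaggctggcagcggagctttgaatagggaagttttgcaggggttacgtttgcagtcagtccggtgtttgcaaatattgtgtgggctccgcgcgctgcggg
FOS: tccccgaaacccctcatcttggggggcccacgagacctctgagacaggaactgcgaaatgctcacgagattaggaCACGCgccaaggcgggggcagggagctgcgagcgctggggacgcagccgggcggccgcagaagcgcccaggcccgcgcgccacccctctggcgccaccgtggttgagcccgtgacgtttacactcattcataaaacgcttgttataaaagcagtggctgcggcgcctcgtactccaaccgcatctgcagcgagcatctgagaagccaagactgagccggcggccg
The EGR1 window holds 2 CArG boxes, beginning 105 and 83 bases before the start, a motif found in 1.29% of the 35116 promoter windows in the table. It was the 1 of the 8 members with a searched window (IER2, ZFP36, EGR1, FOS, JUN, ATF3, DUSP1 and KLF6) to hold one. The hypoxia element core was in 7 of these 8 genes (7 of their 9 windows), ATF3 being the exception, and in 48.4% of all windows. KLF6 holds it 220 bases before the start and again as the palindrome from 97 to 92 bases before, where the matches on the 2 strands overlap. FOS, whose level did not separate any groups, holds it too, 175 bases before the start. The cAMP response element was searched in its full form TGACGTCA only. That form was found in DUSP1 alone among these genes, from 125 to 118 bases before the start, and in 1.85% of all windows. Only these windows and fixed patterns of letters were searched, so an element farther from the start or with other letters would be missed. These are matches of letters, not evidence of binding.

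FOS, JUN and ATF3 belong to the bZIP families that form AP-1 and related dimers. FOS was at 7.36, 7.29, 7.41 and 7.20 in HIF-2α knockdown, at 7.39, 7.39, 7.28 and 7.36 in HIF-1α knockdown and at 7.38, 7.31, 7.34 and 7.33 in wild type. All 12 values lie around the medians of the arrays, the range in which a level cannot be told from a lack of signal, and the groups overlap. The difference of FOS against wild type was -0.03 in HIF-2α knockdown (95% interval -0.14 to 0.09) and 0.01 in HIF-1α knockdown (95% interval -0.10 to 0.13).

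ATF3, the stress-induced member, was at 7.06, 7.07, 7.12 and 7.13 in HIF-2α knockdown, at 7.29, 7.15, 7.13 and 7.20 in HIF-1α knockdown and at 7.16, 7.41, 7.05 and 7.10 in wild type. These values also lie at or below the array medians, apart from wild type replicate 2 at 7.41. No comparison passed, and the differences against wild type were -0.08 in HIF-2α knockdown and 0.01 in HIF-1α knockdown.

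JUN was at 8.43, 8.16, 8.16 and 8.13 in HIF-2α knockdown, at 8.27, 8.24, 8.32 and 8.20 in HIF-1α knockdown and at 8.14, 8.01, 8.16 and 7.91 in wild type. Every HIF-1α knockdown array lay above every wild type array, while HIF-2α knockdown overlapped wild type. JUN thus ran the other way from IER3 and ZFP36 in HIF-2α knockdown, at 0.17 above wild type (95% interval 0.00 to 0.33, adjusted p = 0.404). In HIF-1α knockdown it was 0.20 above wild type (95% interval 0.04 to 0.36, adjusted p = 0.248), and neither difference passed.

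DUSP1, the phosphatase that ends MAP kinase signalling in the nucleus, was at 8.51, 8.73, 8.59 and 8.26 in HIF-2α knockdown, at 8.69, 8.64, 8.76 and 8.52 in HIF-1α knockdown and at 8.68, 8.56, 8.74 and 8.61 in wild type. The groups overlapped, and HIF-2α knockdown replicate 4 was the lowest of all arrays. The difference of DUSP1 against wild type was -0.12 in HIF-2α knockdown (95% interval -0.31 to 0.07, adjusted p = 0.658) and 0.01 in HIF-1α knockdown (95% interval -0.18 to 0.20).

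IER2, a nuclear protein of the same early class, was at 7.56, 7.44, 7.62 and 7.51 in HIF-2α knockdown, at 7.64, 7.49, 7.47 and 7.397 in HIF-1α knockdown and at 7.59, 7.34, 7.45 and 7.68 in wild type. Wild type alone spanned the whole range of the 12 arrays. The mean level of IER2 was at the 45.5th percentile of genes, near the array medians, where a level cannot be told from a lack of signal. The differences against wild type were 0.02 in HIF-2α knockdown and -0.02 in HIF-1α knockdown, with adjusted p of 0.955 and 0.961.

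MYC encodes the transcription factor that drives growth and ribosome production. MYC was at 10.38, 10.63, 10.60 and 10.86 in HIF-2α knockdown, at 10.56, 10.29, 10.64 and 10.44 in HIF-1α knockdown and at 10.99, 10.80, 10.70 and 10.93 in wild type. It was the 1 member whose mean was lower than wild type by over 0.1 in both knockdowns, and only the HIF-1α knockdown arrays lay wholly below wild type. The difference was -0.37 in HIF-1α knockdown (SE 0.10, 95% interval -0.59 to -0.15, adjusted p = 0.108) and -0.24 in HIF-2α knockdown (SE 0.10, 95% interval -0.46 to -0.02, adjusted p = 0.363), and neither passed. With array weights in limma, MYC passed in HIF-1α knockdown (log2 difference -0.46, adjusted p = 0.0396), as did EGR1 (0.28, adjusted p = 0.0325). That setting raised the genes called in this comparison from 177 to 605 of 18404.

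Counted by arrays that do not overlap, 2 of 10 members separated HIF-2α knockdown from wild type (IER3 and ZFP36), against 5.31% of all genes. In HIF-1α knockdown 3 of 10 separated from wild type (EGR1, JUN and MYC), against 7.84%. Between the knockdowns 4 of 10 separated (IER3, ZFP36, EGR1 and KLF6), all lower in HIF-2α knockdown, against 9.08%. The median member lay -0.10 from wild type in HIF-2α knockdown and 0.02 from wild type in HIF-1α knockdown, where the medians of all genes were -0.01 and 0.00.

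Within groups, some arrays were the lowest or highest for many of the members, and the same counts were not made over all genes. HIF-2α knockdown replicate 4 had the lowest value of its group for 7 of the 10 genes, the exceptions being IER2, ATF3 and MYC, and lay 0.08 below the group mean on average. HIF-1α knockdown replicate 3 had the highest value of its group for 6 of the 10 and lay 0.09 above the group mean on average. The first of these arrays is 1 of the 3 with a raised floor, and the part of the floor in its low values was not tested. The ribosomal protein genes averaged 11.81 to 12.36 in HIF-2α knockdown, 11.66 to 11.98 in HIF-1α knockdown and 11.95 to 12.48 in wild type over 23 genes. The hepatocyte markers averaged 12.02 to 12.65 in HIF-2α knockdown, 11.66 to 11.92 in HIF-1α knockdown and 12.23 to 12.65 in wild type over 8 genes. Both lists thus ran low in the HIF-1α knockdown arrays in which EGR1 and JUN ran high, and their part in the differences between the knockdowns was not tested. The size of this shift moved with the scaling: the median difference of HIF-1α knockdown from wild type was -0.44 for the ribosomal and -0.51 for the hepatocyte list on the deposited values, and -0.14 and -0.21 after quantile normalization. FGB, a fibrinogen chain, was lower in HIF-1α knockdown than in wild type (-1.75, adjusted p = 9.03e-06), and higher in HIF-2α knockdown than in wild type (0.63, adjusted p = 0.0196) and HIF-1α knockdown (2.38, adjusted p = 1.66e-07). RPL11, of the large ribosomal subunit, was lower in HIF-1α knockdown than in wild type (-0.78, adjusted p = 0.0368) and higher in HIF-2α than in HIF-1α knockdown (0.76, adjusted p = 0.0206). These were the called genes of both lists. The means of 7 endothelial markers ran from 7.02 to 7.07 in HIF-2α knockdown, 7.12 to 7.14 in HIF-1α knockdown and 7.04 to 7.15 in wild type. Those of 9 leukocyte markers ran from 7.87 to 8.05, 7.95 to 8.04 and 7.96 to 8.12 in the same groups, and those of 9 stromal markers from 7.16 to 7.28, 7.26 to 7.33 and 7.21 to 7.30. PDGFRB of the stromal list passed as lower in HIF-2α knockdown against wild type (-0.40, adjusted p = 0.0109) and against HIF-1α knockdown (-0.35, adjusted p = 0.0105), and CD14 of the leukocyte list against HIF-1α knockdown (-0.39, adjusted p = 0.00899). PECAM1 had the smallest p of the endothelial list there (-0.44, adjusted p = 0.0503). In HIF-2α knockdown PDGFRB lay at 7.07 to 7.35 and CD14 at 7.04 to 7.28, around or below the array medians. When the 3 raised arrays were left out, the calls of PDGFRB, CD14 and RPL11 and that of FGB in HIF-2α knockdown against wild type were lost, and centring each array also ended that same call of FGB and the call of RPL11 against wild type.

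**Figure D3:**
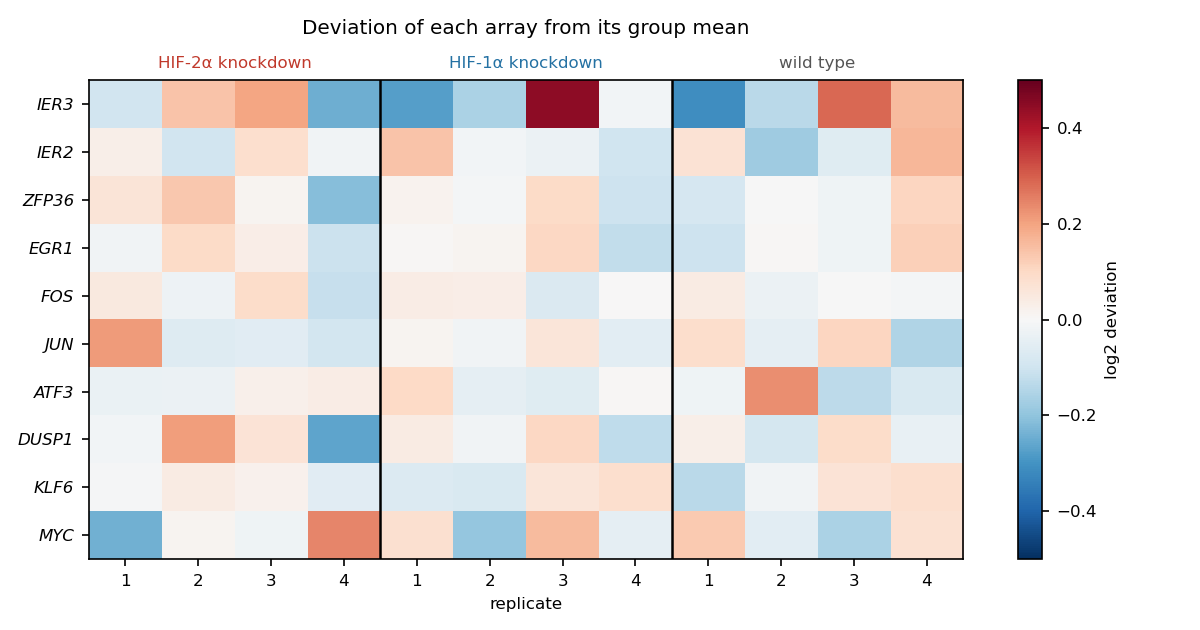
Deviation of each array from its own group's mean (colour, log2 units) for the 10 members, with arrays grouped as HIF-2α knockdown, HIF-1α knockdown and wild type and numbered by replicate. HIF-2α knockdown replicate 4 is below its group mean for 8 members, and IER3 shows the strongest colours.

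Of 48 other immediate early genes listed, 44 were measured. In HIF-2α knockdown against wild type 2 fell and none rose, namely BHLHE40, a hypoxia-responsive transcriptional repressor (log2 difference -1.03, SE 0.13, adjusted p = 0.00206), and CCN2, a matricellular growth factor (-0.67, SE 0.11, adjusted p = 0.0156). BHLHE40 ran from 7.75 to 8.29 in HIF-2α knockdown, against 8.83 to 9.25 in wild type, and CCN2 from 10.76 to 11.18, against 11.46 to 11.85. In HIF-1α knockdown 1 rose and none fell, TNFAIP3, an inhibitor of NF-κB signalling, at 9.27 to 9.42 against 8.73 to 9.13 in wild type (0.44, SE 0.09, adjusted p = 0.0369). Between the knockdowns 4 fell in HIF-2α knockdown and none rose. They were BHLHE40 (-0.96), CCN2 (-0.73), the Notch target HES1 (-0.43, adjusted p = 0.0233) and the transcriptional repressor SNAI2 (-0.30, adjusted p = 0.0409). Of the 44, 32 were negative in HIF-2α knockdown against wild type (median -0.06), 15 in HIF-1α knockdown against wild type (median 0.03) and 36 between the knockdowns (median -0.09). Of all genes 55.4%, 48.0% and 55.3% were negative in these comparisons. When the 3 raised arrays were left out none passed against wild type in either knockdown, and BHLHE40 and CCN2 passed between the knockdowns. TNFAIP3 also lost its call after centring each array, and SNAI2 after centring and after quantile normalization.

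Genes that ERK signalling induces as its own brakes, with its ligands, formed a list of 27. Of these 26 were measured, IER3 and DUSP1 among them. Like the other lists, this list was chosen with earlier results of these data known, so its counts are descriptive. Against wild type, IER3 and SPRY4, a Sprouty inhibitor of receptor tyrosine kinase signalling, fell in HIF-2α knockdown and none rose. SPRY4 was at 9.22, 9.38, 9.27 and 9.11 in HIF-2α knockdown, against 9.77, 9.60, 9.77 and 10.09 in wild type (log2 difference -0.56, SE 0.12, adjusted p = 0.0437). In HIF-1α knockdown 2 rose and none fell, SPRY2 (0.35, SE 0.07, adjusted p = 0.0431) and HBEGF, a ligand of the EGF receptor (0.31, SE 0.06, adjusted p = 0.0326). Between the knockdowns 7 fell in HIF-2α knockdown and none rose, against 1.80% of all genes. These were IER3, SPRY4 (-0.54), SPRY1 (-0.46), SPRED1, a Sprouty-related inhibitor (-0.35), SPRY2 (-0.33), HBEGF (-0.32) and, named after its values were seen, the phosphatase DUSP7 (-0.32, adjusted p = 0.0455). The adjusted p of the first 6 lay between 0.00101 for IER3 and 0.0280 for SPRED1. HBEGF was at 7.52, 7.49, 7.53 and 7.48 in HIF-2α knockdown, against 7.80, 7.89, 7.93 and 7.69 in HIF-1α knockdown, and lay between 7.44 and 7.63 in wild type. Its difference between the knockdowns thus came with a high level in HIF-1α knockdown, as for SPRY2, while SPRY4 was low in HIF-2α knockdown. Over the list 22 of 26 were negative both between the knockdowns (median -0.20) and in HIF-2α knockdown against wild type (median -0.14), and 11 of 26 in HIF-1α knockdown against wild type (median 0.01), beside 55.3%, 55.4% and 48.0% of all genes. When the 3 raised arrays were left out, IER3 was the 1 gene of the list called between the knockdowns (median of the list -0.18), and after centring each array 3 were (IER3, SPRY2 and HBEGF). Against wild type both of these settings left IER3 alone called in HIF-2α knockdown, without SPRY4, and no gene of the list called in HIF-1α knockdown by limma. After quantile normalization SPRED1 was no longer called between the knockdowns, nor HBEGF in HIF-1α knockdown against wild type.

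**Figure D4:**
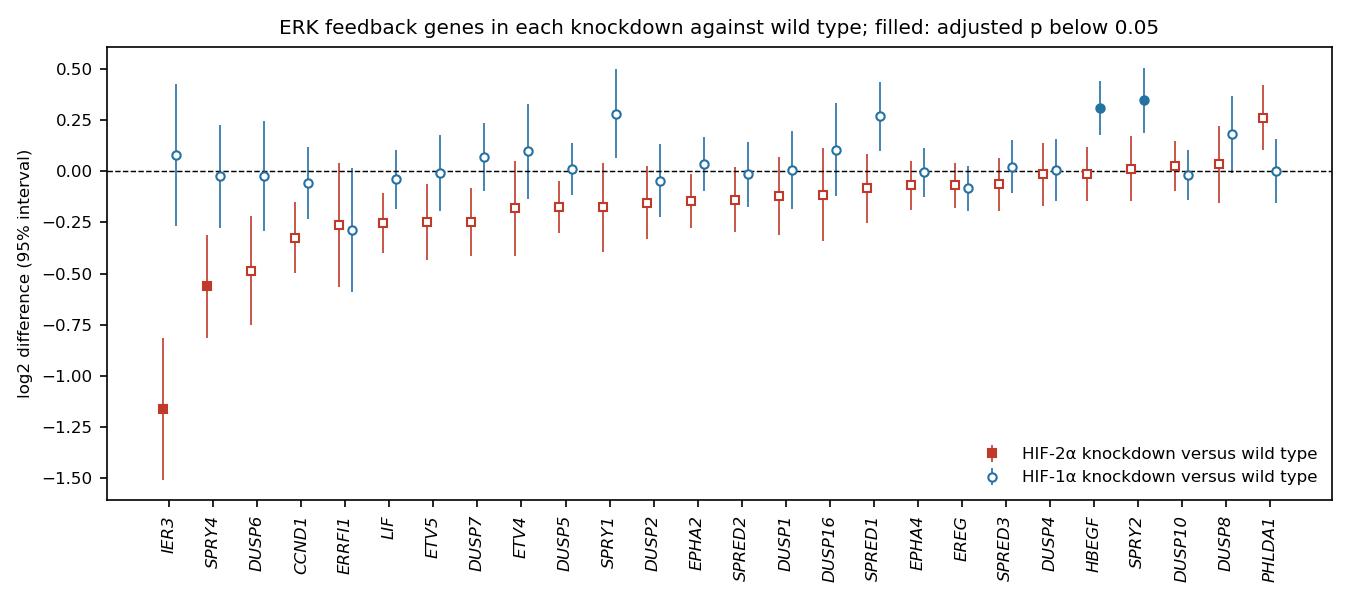
Log2 differences from wild type with 95% intervals for 26 ERK feedback genes in HIF-2α knockdown (squares) and HIF-1α knockdown (circles), ordered by the HIF-2α knockdown difference; filled symbols have an adjusted p below 0.05. IER3 and SPRY4 are filled at the low end for HIF-2α knockdown, and HBEGF and SPRY2 are filled above 0 for HIF-1α knockdown.

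Of 23 AP-1 and bZIP genes measured, none passed in either knockdown against wild type by limma on the deposited values. There 3 had an unadjusted p below 0.05 in HIF-2α knockdown and 1 in HIF-1α knockdown, the member JUN being in both counts. The smallest p by limma was that of MAFG, a small MAF protein, in HIF-2α knockdown (-0.31, adjusted p = 0.0898). MAFG was lower by limma in HIF-2α than in HIF-1α knockdown (-0.40, SE 0.08, adjusted p = 0.0137). After quantile normalization FOSL2 and MAFG passed as lower in HIF-2α knockdown against wild type. Of 20 EGR, KLF and NAB genes, KLF5 fell in HIF-2α knockdown against wild type (-0.26, SE 0.05, adjusted p = 0.0305), a call lost when the 3 raised arrays were left out. KLF7 rose in HIF-1α knockdown against wild type (0.79, SE 0.10, adjusted p = 0.00241) and was lower in HIF-2α than in HIF-1α knockdown (-0.90, adjusted p = 0.000234). The other call of this list between the knockdowns was the member EGR1. KLF7 was at 8.60 to 8.79 in HIF-1α knockdown, against 7.69 to 8.17 in wild type, and at 7.61 to 7.87 in HIF-2α knockdown.

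Upstream kinases and their nuclear targets showed 0 calls of 27 against wild type in either knockdown by limma, with an unadjusted p below 0.05 for 3 in HIF-2α and 6 in HIF-1α knockdown. MAPK9, which encodes a JNK, had the smallest p in both (0.24, adjusted p = 0.204, and 0.33, adjusted p = 0.0718). Between the knockdowns 7 of the 27 had an unadjusted p below 0.05 by limma. There the ternary complex factor ELK3, a partner of serum response factor, was lower in HIF-2α knockdown (-0.30, adjusted p = 0.0351) and the ribosomal S6 kinase gene RPS6KA1 higher (0.30, adjusted p = 0.0365). ELK3 was not called after quantile normalization, after centring or without the 3 raised arrays, and RPS6KA1 not in the last of these. Among 13 genes of the MYC network and 28 textbook MYC targets none passed in any comparison of the deposited values by limma. In HIF-1α knockdown against wild type 3 of the network and 3 of the targets had an unadjusted p below 0.05, with MLX (0.29, adjusted p = 0.102) and TFB2M (0.42, adjusted p = 0.0778) at the smallest p. In HIF-2α knockdown against wild type the counts were 2 and 1, with MXD1 (0.31, adjusted p = 0.215) and TFB2M (0.25, adjusted p = 0.344). MYC itself is in the network count of either knockdown against wild type. Between the knockdowns the counts were 1 and 5, with MLX (-0.28, adjusted p = 0.0836) and BOP1 (-0.29, adjusted p = 0.117). Of 17 genes of AU-rich mRNA decay, ZFP36 was the 1 called in any comparison of the deposited values, with CNOT7 and DCP2 called besides in HIF-2α knockdown against wild type, and DCP2 between the knockdowns, after quantile normalization. On the deposited values, against wild type 4 in HIF-2α and 1 in HIF-1α knockdown had an unadjusted p below 0.05 by limma, and 3 between the knockdowns. CNOT7, a deadenylase, had the smallest p in HIF-1α knockdown against wild type (0.31, adjusted p = 0.241). Of 15 integrated stress response genes, the pathway that induces ATF3, 8 had an unadjusted p below 0.05 between the knockdowns by limma. VLDLR rose there in HIF-2α relative to HIF-1α knockdown (0.47, adjusted p = 0.00327), its HIF-1α knockdown arrays lying at 7.16 to 7.32, around the array medians. Against wild type none passed by limma on the deposited values, with an unadjusted p below 0.05 for 2 in HIF-2α and 3 in HIF-1α knockdown. The smallest p there was that of PPP1R15A, a phosphatase subunit, in HIF-2α knockdown (-0.21, adjusted p = 0.132) and of DDIT3 in HIF-1α knockdown (0.32, adjusted p = 0.0848). After quantile normalization PPP1R15A passed as lower in HIF-2α knockdown against wild type.

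The genes most like a called member were found by Pearson's r over the 12 arrays, given as a description of points that share their arrays. For IER3 they were CAVIN2 (r = 0.98), RNASET2 (0.98), ABTB3 (0.98), BHLHE40 (0.97) and CHST15 (0.97). CHST15, a chondroitin sulfate sulfotransferase, averaged 7.55 in HIF-2α knockdown, 9.02 in HIF-1α knockdown and 9.07 in wild type, and RNASET2, a lysosomal ribonuclease, 8.26, 9.13 and 9.22 in the same order of groups. For ZFP36 they were CHST6 (0.95), GAB2 (0.95), PPP1R15A (0.95), CITED2 (0.92) and again CAVIN2 (0.92). For EGR1 they were PSMD2 (0.93), SUSD2 (0.92), TNFRSF21 (0.92), PIP4K2C (0.92) and RIPOR1 (0.90). Like EGR1 itself, all had their highest group mean in HIF-1α knockdown, which choosing them by r makes likely. No gene was among the nearest of both EGR1 and either of the other called members. For the members that were not called, the nearest genes were ADCK5 for IER2, CHRDL2 for FOS, UBTD2 for JUN, LCN9 for ATF3, CPOX for DUSP1, ASAP2 for KLF6 and CLSTN1 for MYC, with r from 0.90 to 0.95.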

How the data were processed

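Gene expression was measured with 1 Affymetrix array per sample in 12 samples of HepG2 spheroids, 4 per group; per the labels' protocols total RNA was amplified with a NuGEN kit and labelled with biotin. The values are the authors' deposited log2 values of 32321 probe sets. That the logarithm has base 2 was read from the span of the values. How the background was corrected and how probe sets were summarized and normalized is not given in the sources used here. Precision is limited by the number of arrays.

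Genes were assigned to probe sets by GEO's platform annotation, and symbols were updated through Entrez identifiers in the RefSeq table of GRCh38.p14: 19158 carried 1 symbol, 1388 several and 11775 none, and 19128 of the 19158 matched by identifier. The brightest probe set per gene over the 12 arrays left 18404 genes; each member had 1 such probe set. Differences were fitted with limma 3.58.1 in R 4.3.3 (lmFit on 3 group means, eBayes) over all genes, with Benjamini-Hochberg adjustment within a comparison and a threshold of 0.05; SE is the moderated standard error. No gene was filtered. The fit was tested on simulated data. The p-values measure the spread between arrays from separate spheroid experiments of each genotype.

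The members, the gene lists and the naming rule were chosen with earlier results of these data known. The rule names every member, HIF1A and EPAS1, up to 6 called genes of each list or else its smallest p, and the 5 nearest genes of a called member or 1 of another member. The lists not described one by one were marker lists. Alternatives were quantile normalization, centring on the array median, removal of the lowest 25% of genes, the mean of probe sets, eBayes with a trend, array weights, only the groups compared, the replicate number as a block, omission of arrays with a 0.1 percentile above 6.3, and omission of each array. Promoter windows are from RefSeq. No window was used for MYC, as members on chromosome 8 were left out, and IER3 had none in the table used.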

Additional observations from a re-analysis of the deposited data

Results flagged for a closer look

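JUN in HIF-2α knockdown replicate 1 was far from the other arrays of its group, at 8.43 against 8.13 to 8.16. The gap to the nearest array was 0.888 of the range of the group, above Dixon's 95% critical value for 4 samples. It was the 1 such value in 30 member groups, of which chance marks about 1 in 20. Without that array the difference of JUN from wild type in HIF-2α knockdown was 0.10, against 0.17 with it, and it passed in neither.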

How the results depend on the processing

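Over 21 other settings, IER3 stayed lower and called in HIF-2α knockdown against wild type (log2 difference -1.30 to -1.06, adjusted p 0.000238 to 0.0477) and against HIF-1α knockdown (-1.33 to -1.09, adjusted p 4.5e-05 to 0.0145). Of 630 recomputed member differences 574 kept direction and call, 12 lost a call, 9 gained one, and 35 uncalled ones changed sign; no called one reversed. Members called in HIF-1α knockdown against wild type numbered 0, and 2 with array weights (EGR1 and MYC). In HIF-2α knockdown against wild type the 1 became 2 with ZFP36 after quantile normalization, with an eBayes trend and without HIF-2α knockdown replicate 2 (1 to 2 over omitted arrays). Between the knockdowns the 3 became 1, IER3, without the raised-floor arrays and without HIF-1α knockdown replicate 1, 2 or 3 (1 to 4 over omitted arrays). KLF6 joined the calls after quantile normalization (4 in all), with array weights, with only the groups compared and without wild type replicate 1.

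Genes called overall moved more. In HIF-1α knockdown against wild type they were 177 (150 higher, 27 lower), 254 after quantile normalization (140 higher, 114 lower), 85 after centring, 605 with array weights, 396 with only the groups compared and 22 without the raised-floor arrays (8 higher, 14 lower). In HIF-2α knockdown against wild type they were 145 (88 higher, 57 lower), 404 after quantile normalization (141 higher, 263 lower), 72 after centring (34 higher, 38 lower), 286 with a trend, 64 with only the groups compared (28 higher, 36 lower) and 37 without the raised-floor arrays (14 higher, 23 lower), which leaves 2 wild type arrays. Between the knockdowns they were 509 (178 higher, 331 lower), 888 after quantile normalization, 337 after centring, 980 with array weights and 259 without the raised-floor arrays (119 higher, 140 lower). Omitting 1 array gave 50 (HIF-1α knockdown replicate 3) to 483 (wild type replicate 3), 61 (wild type replicate 4) to 219 (wild type replicate 3) and 211 (HIF-1α knockdown replicate 3) to 618 in these comparisons. Other omissions that moved a count by over 1.5 times were, for HIF-1α knockdown against wild type, wild type replicates 1 (57), 2 (107) and 4 (86) and HIF-1α knockdown replicates 2 (58) and 4 (105). For HIF-2α knockdown against wild type they were HIF-2α knockdown replicate 1 (64) and wild type replicates 1 (91), 2 (81) and 3 (219), and between the knockdowns HIF-2α knockdown replicate 4 (274) and HIF-1α knockdown replicates 2 (279) and 4 (313). Causes beyond the fewer arrays were not tested. With the replicate block the members called were again 0, 1 and 3 and the genes called 234, 202 and 562. Same-numbered arrays of different groups had deviations correlated at -0.17 to 0.64 across genes (median 0.045, 5 of 12 pairs above 0.1). Differently numbered arrays of different groups ran from -0.60 to 0.57 (median -0.079, 12 of 36 pairs above 0.1). The nearest array had the same number for 3 of 12 arrays. These correlations cannot decide whether same-numbered samples share more than a number.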
